A study of Mus musculus with 6 samples.

Results

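The genes described here were 7 genes of renal phosphate handling, taken by symbol from the 33696 genes of the count tables: Slc34a1, Slc34a3, Slc20a1 and Slc20a2, which encode sodium-phosphate cotransporters, Xpr1, which encodes a phosphate exporter, and Pth1r and Fgfr1, which encode receptors for parathyroid hormone (PTH) and fibroblast growth factors. Each symbol matched 1 gene. The set had been put together as phosphate transporters and vitamin D enzymes, but none of the 7 encodes an enzyme of vitamin D metabolism, so it is called the phosphate genes below, and the vitamin D genes are given separately from their own list. Transcripts were counted in single cells of the kidney, summed per mouse over the cells of a proximal tubule segment, and compared between sham and DOCA-salt mice.

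Filtered phosphate is taken back mainly in the proximal tubule, through sodium-phosphate cotransporters of the brush border. PTH and FGF23 both make the cell withdraw these cotransporters from the apical membrane. FGF23 signals through FGF receptors with Klotho as its partner, and the same hormones set the balance between Cyp27b1, which makes active vitamin D, and Cyp24a1, which degrades it.

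All animals were male C57BL/6 mice, entered at 8 to 10 weeks of age. In the DOCA-salt group (n = 3) the left kidney was taken out, and a 50 mg pellet of the mineralocorticoid deoxycorticosterone acetate (DOCA) together with 1% NaCl to drink followed for 21 days. Sham mice (n = 3) underwent a mock operation and received neither pellet nor salt. Effects of nephrectomy therefore cannot be told apart from those of DOCA and salt. Each of the 6 libraries came from a separate mouse.

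The libraries held 11058 to 14449 barcodes and 93172739 to 137819127 unique molecular identifiers (UMIs) per mouse, and 55630 of 76774 barcodes remained after the limits on mitochondrial and hemoglobin UMIs and the removal of likely doublets. Any pair of libraries shared 13 to 38 barcodes. Marker genes placed 26561 cells in the proximal tubule, with 7530 S1-like, 6243 S2-like and 295 S3-like cells, and the other 12493 proximal cells were given no segment. Between 486 and 1941 cells per mouse outside the proximal tubule stayed unnamed. The markers of S1 and S3 followed the names: the 10 S1 markers summed to 5898 to 7488 CPM (counts scaled to 1000000 UMIs) in S1 and to 1174 to 1873 in S2, and the 11 S3 markers summed to 7730 to 12895 CPM in S3 and to 2495 to 2958 in S2. The name S2 stood on weaker ground: the 10 S2 markers summed to 3053 to 4111 CPM in S2, beside that level of the S3 markers in the same cells. S3 rested on 17 to 83 cells per mouse. These cells also held the 10 descending or thin limb markers at 1152 to 1955 CPM, against 150 to 189 in S1 and 298 to 328 in S2. The general proximal markers summed to 8684 to 11208 CPM in S3, 15117 to 16067 in S1 and 14621 to 15306 in S2. The part of thin limb cells in S3 was not tested. Scored cell by cell instead of by cluster, 9589 of the 14068 cells with a segment kept it. Of the 6243 S2-like cells, however, most (3389) scored as S3, 2539 as S2 and 315 as S1. S2 below therefore means these clusters, a class that mostly did not score as S2. By these clusters S3 held 0.289 ± 0.109% of a sham mouse's cells and 0.766 ± 0.179% with DOCA-salt (mean ± SD, log2 change 1.39, SE 0.34, adjusted p = 0.00757). That direction rests on where the clusters were cut: at clustering resolution 2, S3 held 502 to 792 cells per sham mouse and 310 to 560 per DOCA-salt mouse (6.88 ± 1.00% and 4.47 ± 1.64%), and scored cell by cell 1222 to 1814 and 838 to 1354 (16.2 ± 3.35% and 11.5 ± 3.41%), with overlap. No direction is therefore given for S3 cells. By the clusters, S1 (14.7 ± 2.01% and 12.6 ± 1.66%, adjusted p = 0.537) and S2 (12.5 ± 0.782% and 10.0 ± 2.41%, adjusted p = 0.428) missed the threshold. The S2 share turned higher with DOCA-salt when cells were scored one by one (11.3 ± 0.619% and 11.7 ± 2.07%) and at resolution 2 (4.72 ± 1.07% and 5.84 ± 0.490%). With at most 20% mitochondrial UMIs both shares were lower with DOCA-salt without overlap (S1 16.0 ± 2.56% and 12.3 ± 0.368%, S2 9.81 ± 0.778% and 6.51 ± 1.68%).

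Levels below are CPM, the UMIs of a gene scaled to 1000000 UMIs of the named cells in 1 mouse. The orders of levels cover 18 classes and leave out those with under 10 cells in any mouse, fibroblasts among them. In the sham mice, Slc34a1 (chr13:55546000-55563413, plus strand, GRCm39) had its highest level in S1, at 5044 ± 436 CPM, followed by S2 at 4092 ± 224 CPM and by the proximal cells without a segment at 3585 ± 230 CPM. These 3 classes did not overlap over the sham mice. Cycling cells (2459 ± 348 CPM), injured tubule cells (1879 ± 293 CPM) and S3 (824 ± 294 CPM) came next, and the ranges of cycling and injured tubule cells overlapped. The other 12 classes lay between 262 and 556 CPM, each overlapping its neighbor in the order, and S3 overlapped the highest of them, macrophages. Slc34a3 (chr2:25118910-25124376, minus strand) was at 140 ± 19.7 CPM in S1, above every other class. Cycling cells, proximal cells without a segment and injured tubule cells followed at 58.5 ± 32.0, 36.9 ± 9.93 and 35.7 ± 9.70 CPM, with overlapping ranges. In S2 (7.09 ± 2.80 CPM) and S3 (7.95 ± 2.17 CPM) the level of Slc34a3 lay inside the 4.51 to 9.69 CPM of the classes outside the proximal tubule other than cycling, injured tubule and dendritic cells, the last of which held no Slc34a3 UMI in the sham mice. Whether RNA free in the cell suspension gave this level was not tested, so it does not show that S2 or S3 cells express the gene.

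**Figure D1:**
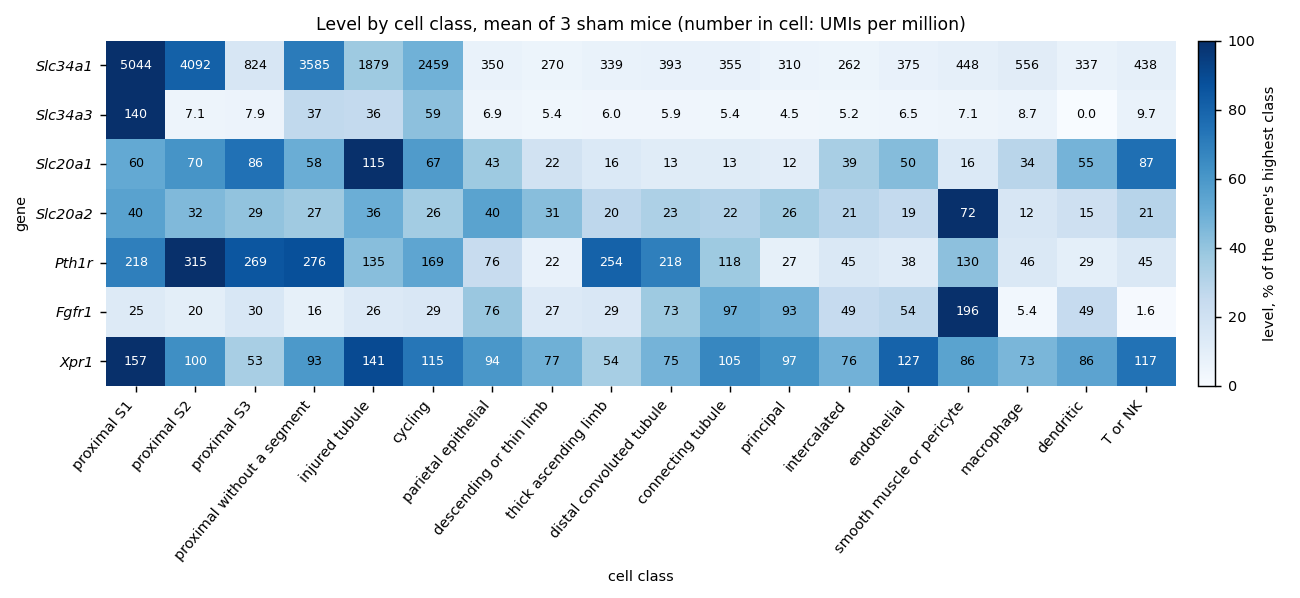
Mean level of each phosphate gene (rows) in the cell classes (columns) of the 3 sham mice, with CPM printed in each field and the color giving the percent of that gene's own highest class. Slc34a1 and Slc34a3 peaked in S1, Pth1r in S2 with high levels in the thick ascending limb and distal convoluted tubule, and Slc20a2 and Fgfr1 in smooth muscle cells or pericytes.

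The other members were less tied to the proximal tubule. Slc20a1 (chr2:129040256-129053536, plus strand), a cotransporter found in many tissues, was at 115 ± 61.2 CPM in injured tubule cells, 86.8 ± 16.6 CPM in T or NK cells and 85.6 ± 11.1 CPM in S3. The ranges of all neighbors in its order overlapped, down to 11.9 ± 2.20 CPM in principal cells. Slc20a2 (chr8:22966111-23059686, plus strand), its close relative, was highest in smooth muscle cells or pericytes at 72.4 ± 15 CPM, apart from S1 at 40.1 ± 3.2 CPM and from all classes below. Another annotated gene, Gm17491, overlaps Slc20a2 on the same strand, so reads of the pair may not be cleanly separated. Xpr1 (chr1:155151407-155293181, minus strand) was the most evenly spread of the 7 in these classes, from 157 ± 18.4 CPM in S1 to 53.5 ± 14.4 CPM in S3, and every neighboring pair in its order overlapped.

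Among the receptors, Pth1r (chr9:110550767-110576259, minus strand) was at 315 ± 80.1 CPM in S2, 276 ± 71.5 CPM in proximal cells without a segment, 269 ± 55.7 CPM in S3 and 254 ± 67.5 CPM in the thick ascending limb. S1 and the distal convoluted tubule followed at 218 ± 56.6 and 218 ± 80.1 CPM. All neighbors in this order overlapped, and sham 2 was the lowest sham mouse in S1, S2 and S3. Fgfr1 (chr8:26003670-26066824, plus strand) was at 196 ± 30.2 CPM in smooth muscle cells or pericytes, above all other classes of the order, which holds no fibroblasts. Connecting tubule cells (96.7 ± 20.6 CPM) and principal cells (92.8 ± 4.89 CPM) came next, while S1 and S2 held 24.8 ± 3.72 and 19.7 ± 1.87 CPM, ranges that did not overlap.

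To show the sequence around starts of transcription for genes of contrasting spread, 3 stretches upstream of RefSeq transcript starts are printed, for the proximal genes Slc34a1 and Slc34a3 and for the broadly detected Xpr1. They come from a RefSeq promoter table, matched without mismatch to GRCm39 and cut to the part outside annotated exons, and are written 5′ to 3′ on the strand of the gene with each CG in capitals. The Slc34a1 start used lies inside the annotated gene (chr13:55547211-55547460). The Slc34a3 stretch is chr2:25124377-25124487 and that of Xpr1 chr1:155293191-155293440.
Slc34a1: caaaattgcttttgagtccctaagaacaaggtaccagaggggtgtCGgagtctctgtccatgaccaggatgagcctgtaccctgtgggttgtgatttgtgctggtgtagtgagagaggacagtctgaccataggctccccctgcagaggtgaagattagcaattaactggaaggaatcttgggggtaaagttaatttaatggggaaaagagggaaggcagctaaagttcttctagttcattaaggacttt
Slc34a3: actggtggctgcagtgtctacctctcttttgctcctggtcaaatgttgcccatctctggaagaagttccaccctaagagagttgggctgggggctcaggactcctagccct
Xpr1: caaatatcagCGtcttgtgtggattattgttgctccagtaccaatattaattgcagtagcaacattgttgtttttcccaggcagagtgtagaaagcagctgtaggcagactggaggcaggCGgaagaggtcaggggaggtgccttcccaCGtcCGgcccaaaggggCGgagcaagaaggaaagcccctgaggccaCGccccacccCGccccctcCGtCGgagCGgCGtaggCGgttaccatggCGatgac
CG is its own reverse complement, so both strands give the same matches. Over the 250 bases upstream of the start, Slc34a1 held 1 CG, and 18.8% of the 32851 promoters of the table hold at most as many. Slc34a3 held 2 CG (29% of promoters with at most as many) and Xpr1 13 (70.6%). Slc20a1 had 2 listed starts with 29 and 5 CG (94.1% and 49.6%), and Pth1r 3 listed starts with 22, 16 and 3 CG (86.7%, 76.5% and 37.8%). These counts describe the windows only. Slc20a2 and Fgfr1 had no entry.

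Within the proximal tubule the members formed different gradients. Slc34a1 was higher in S1 than in S2 in 6 of 6 mice (4698 ± 506 and 3933 ± 299 CPM over both groups, n = 6, ratios of 1.12 to 1.29 within a mouse), and S3 was lower still at 762 ± 206 CPM, 3.85 to 8.36 times below S2. In the sham mice the S3 range of Slc34a1 overlapped that of macrophages, and the part of free RNA in it was not tested. Slc34a3 showed the steepest step from S1 to S2, 128 ± 19.8 against 6.29 ± 2.09 CPM, with ratios of 13.6 to 29.5 within a mouse. Its S2 level in the sham mice lay inside the range of most classes outside the proximal tubule, as given above. The part of free RNA in these ratios was not tested. Xpr1 was lower from segment to segment in every mouse, without overlap of the segments, from 170 ± 21.5 CPM in S1 to 107 ± 8.65 CPM in S2 and 60.9 ± 13.6 CPM in S3.

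Slc20a1 ran the other way, with 61.7 ± 7.99 CPM in S1 and 77.9 ± 15.2 CPM in S2, S1 being lower in 6 of 6 mice, and 104 ± 27.0 CPM in S3, above S2 in 5 of 6 mice. Pth1r was higher in S2 than in S1 in 6 of 6 mice (295 ± 63.4 and 214 ± 45.1 CPM) and higher in S2 than in S3 (241 ± 49.2 CPM) in 6 of 6 mice, although ranges over mice overlapped. Slc20a2 was higher in S1 than in S2 in 6 of 6 mice (45.5 ± 6.90 and 34.1 ± 3.61 CPM), as was Fgfr1 (27.6 ± 4.45 and 23.0 ± 4.34 CPM). The S3 values of these last 2 genes, 40.4 ± 17.8 and 37.9 ± 16.0 CPM, varied too widely for an order with S1. With 6 mice, these are descriptions within mouse, given without a test, and the steps to and from S2 are those of its clusters, where most cells scored as S3. The S3 cells also held markers of the descending or thin limb, as given above.

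**Figure D2:**
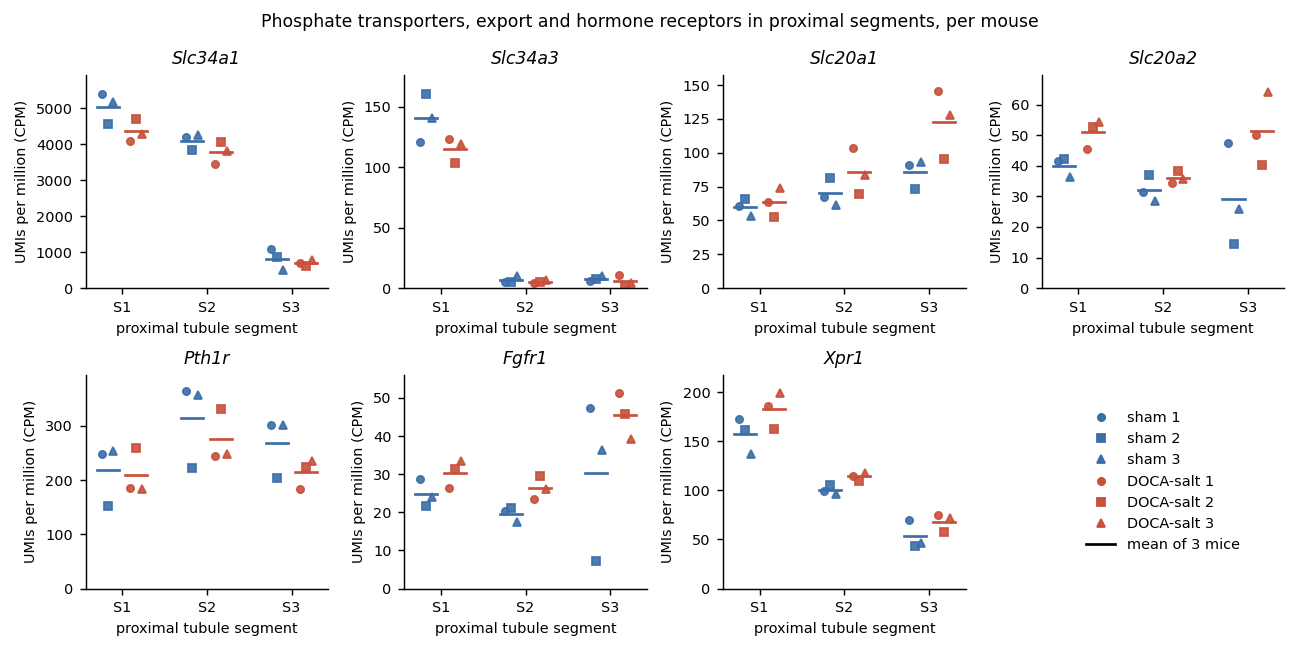
Level of each phosphate gene in S1, S2 and S3 in CPM (linear axes from 0), with 1 point per mouse, blue for sham and red for DOCA-salt, and a line at the mean of 3 mice. Slc34a1, Slc34a3 and Xpr1 were lower in S3 than in S1 in every mouse, Slc20a1 was higher in S3 than in S1, and within each segment most sham and DOCA-salt points intermingled.

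The comparison of sham with DOCA-salt within a segment asked whether the phosphate genes changed in the cells themselves. By edgeR's quasi-likelihood test, with p-values adjusted for all genes tested (Benjamini-Hochberg), 0 of 7 members passed in S1, where 3.56% of 14118 genes did, 0 of 7 in S2 (5.68% of 12366 genes) and 0 of the 6 tested in S3 (0.459% of 5666 genes). Over all proximal tubule cells 0 of 7 passed, against 6.79% of 16073 genes, and in the proximal cells without a segment 0 of 7 (5.74% of 13966 genes). At an unadjusted p under 0.05 there were 2 members in S1 (Slc34a3 and Slc20a2), 1 in S2 (Fgfr1), 0 in S3, 1 over all proximal cells (Fgfr1) and 0 in those without a segment, and DESeq2 likewise called 0 in each. The shares over all genes moved with single mice. Over all proximal cells the 759 genes called higher and 332 lower became 1328 and 1243 without sham 2 and 230 and 41 without DOCA-salt 3. In S1 the 371 and 132 became 650 and 492, and 96 and 22, and in S2 the 497 and 205 became 893 and 889, and 225 and 60. The count of members called stayed at 0 in S1, S2 and over all proximal cells without each mouse in turn.

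Slc34a1, the main apical cotransporter, was at 5404, 4559 and 5169 CPM in S1 of sham mice 1 to 3 and at 4100, 4685 and 4271 CPM in DOCA-salt mice 1 to 3. The groups overlapped only through sham 2 and DOCA-salt 2 (log2 change -0.28, SE 0.16, 95% interval -0.63 to 0.067, adjusted p = 0.399). In S2 the values were 4196, 3835 and 4246 against 3447, 4069 and 3805 CPM (-0.16, interval -0.49 to 0.17, adjusted p = 0.565). S3 gave 1090, 875 and 508 against 713, 605 and 778 CPM (-0.37, interval -0.87 to 0.13, adjusted p = 0.754). In all 3 segments the DOCA-salt mean was the lower one, the groups overlapped and the interval included 0.

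Slc34a3, the second apical cotransporter, was at 121, 160 and 141 CPM in S1 of the sham mice and at 123, 103 and 119 CPM in the DOCA-salt mice. Sham 1 lay among the DOCA-salt mice, and the lower DOCA-salt mean (log2 change -0.36, SE 0.15, interval -0.69 to -0.040) did not pass the adjustment (adjusted p = 0.231). In S2, with 49 to 94 UMIs per mouse, the change was -0.42 (interval -1.07 to 0.23, adjusted p = 0.442), and without sham 3 it was -0.038. Slc34a3 was not tested in S3, where a mouse gave 1 to 11 UMIs.

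Slc20a1 overlapped between the groups in S1, at 60.9, 65.7 and 53.4 CPM in sham and 63.9, 52.4 and 73.7 CPM in DOCA-salt (log2 change 0.0010, interval -0.31 to 0.32, adjusted p = 0.998). In S2 it was at 67.1, 81.4 and 61.6 against 104, 69.7 and 83.9 CPM (0.26, interval -0.11 to 0.63, adjusted p = 0.398). Only in S3 did the groups not overlap, at 90.6, 72.9 and 93.3 against 146, 95.2 and 128 CPM, yet with 10 to 145 UMIs per mouse the test did not pass (0.38, interval -0.17 to 0.93, adjusted p = 0.786).

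Slc20a2 had 41.5, 42.3 and 36.4 CPM in S1 of the sham mice and 45.6, 52.8 and 54.3 CPM in the DOCA-salt mice. All 3 DOCA-salt mice were above all 3 sham mice, but the difference did not pass the adjustment (log2 change 0.27, SE 0.11, interval 0.017 to 0.52, adjusted p = 0.253). In S2 the groups overlapped (31.3, 36.9 and 28.6 against 34.3, 38.1 and 35.7 CPM, log2 change 0.12, interval -0.14 to 0.39, adjusted p = 0.590).

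Xpr1, through which phosphate leaves cells, was at 173, 162 and 137 CPM in S1 of the sham mice and 185, 162 and 199 CPM in the DOCA-salt mice, which overlapped (log2 change 0.14, interval -0.14 to 0.42, adjusted p = 0.623). In S2 it was at 99.3, 105 and 95.9 against 115, 109 and 118 CPM. These groups did not overlap, but the interval of the change included 0 (0.15, SE 0.11, interval -0.090 to 0.39, adjusted p = 0.460).

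Pth1r, the PTH receptor of the proximal cell, was at 247, 153 and 254 CPM in S1 of the sham mice and 186, 259 and 184 CPM in the DOCA-salt mice. Sham 2 was the lowest of all 6 and DOCA-salt 2 the highest, so the spread within each group exceeded the difference between them (log2 change -0.12, SE 0.20, interval -0.56 to 0.32, adjusted p = 0.817). In S2 sham 2 was again the lowest of all 6 and DOCA-salt 2 the highest of its group, with 365, 222 and 357 against 244, 332 and 248 CPM (-0.25, interval -0.71 to 0.21, adjusted p = 0.532). In S3 the values were 301, 204 and 301 against 184, 224 and 235 CPM (-0.47, interval -0.96 to 0.012, adjusted p = 0.623).

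Fgfr1, the FGF receptor most often named as the partner of Klotho, was at 20.2, 21.2 and 17.6 CPM in S2 of the sham mice and 23.5, 29.6 and 26.2 CPM in the DOCA-salt mice, without overlap. The difference missed the adjusted threshold (log2 change 0.38, SE 0.13, interval 0.099 to 0.66, adjusted p = 0.116). Over all proximal cells it stood at 21.0, 20.3 and 18.8 against 23.2, 26.0 and 27.3 CPM (0.29, interval 0.059 to 0.51, adjusted p = 0.125), and in S1 the groups overlapped (0.22, interval -0.070 to 0.50, adjusted p = 0.432).

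Markers of other cells and of injury moved within the same sums. The 10 markers of injured tubule summed to 796 to 1314 CPM over all proximal cells of the sham mice and to 2858 to 4730 CPM in the DOCA-salt mice (7 of 10 higher), to 1253 to 2156 against 3090 to 4952 CPM in S1 (7 of 9 tested higher) and to 431 to 511 against 2562 to 3978 CPM in S2 (6 of 9 tested higher). The fibroblast list rose from 1.18 to 4.43 CPM up to 38.1 to 64.9 CPM (7 of 7 tested higher), and the macrophage list from 219 to 257 up to 326 to 440 CPM (6 of 10 higher). In S3 the injured tubule list summed to 343 to 435 CPM in the sham mice and 1974 to 3365 CPM in the DOCA-salt mice (1 of 4 tested higher). The macrophage list there summed to 109 to 192 against 363 to 1006 CPM (1 of 2 tested higher). Segment markers moved too. In S2 the 10 S1 markers summed to 1174 to 1687 CPM in the sham mice and 1719 to 1873 CPM in the DOCA-salt mice (3 of 10 higher, 0 lower). The 10 S2 markers summed to 3600 to 4111 against 3053 to 3285 CPM (1 higher, 1 lower), and neither list overlapped between the groups. In S1 the S2 markers summed to 1220 to 1408 against 1431 to 1477 CPM (3 of 9 tested higher, 1 lower) and the S3 markers to 376 to 428 against 462 to 545 CPM (3 of 9 tested higher, 2 lower), also without overlap. Their part in the values of the phosphate genes was not tested.

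**Figure D3:**
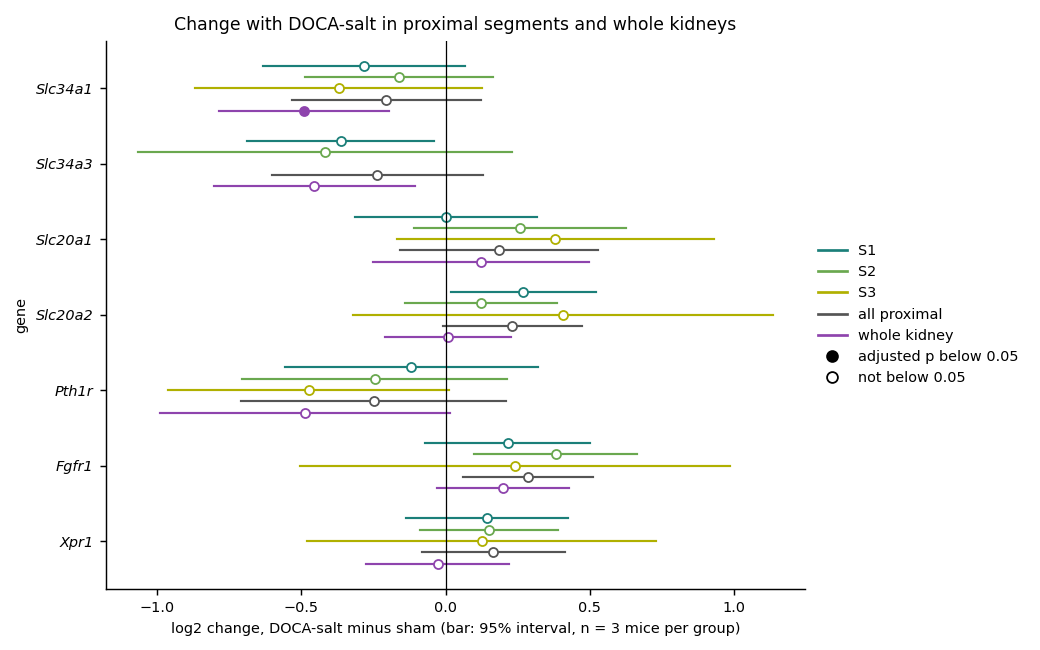
Log2 change (DOCA-salt minus sham, horizontal axis) of each phosphate gene with its 95% interval in S1, S2, S3, all proximal cells and whole kidneys, filled where the adjusted p was below 0.05. The fall of Slc34a1 in whole kidneys (-0.49) was the single filled point, and most intervals crossed 0.

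The difference in change between segments was tested directly. For S2 against S1, 0 of 7 members passed (4.91% of 13998 genes did), for S3 against S1 0 of 7 (1.06%) and for S3 against S2 0 of 7 (0.756%), with 1, 1 and 0 at an unadjusted p under 0.05. Slc20a1 accounted for both of these: its change in S2 exceeded that in S1 by 0.25 (interval 0.024 to 0.47, adjusted p = 0.239) and its change in S3 exceeded that in S1 by 0.53 (interval 0.030 to 1.04, adjusted p = 0.451). The median over all genes of the S3 minus S1 difference was 0.14, with 105 genes called higher and 32 lower. With DESeq2's size factors in edgeR the median was 0.0092 (50 higher and 49 lower) and the Slc20a1 value 0.40, and with scaling by library size only 0.022 (56 and 44) and 0.42. For S3 minus S2 the median was 0.10 (53 and 35), and -0.012 (32 and 57) with those size factors. DESeq2's own test was not run for these differences. Keeping the likely doublets brought Slc20a1 past the threshold for S2 against S1 and for S3 against S1.

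Summed over all cells of a mouse, Slc34a1 was at 2994, 2679 and 2792 CPM in the sham mice and 2151, 2284 and 2101 CPM in the DOCA-salt mice. The groups did not overlap, and Slc34a1 fell by 0.49 on the log2 scale (SE 0.13, interval -0.78 to -0.20, adjusted p = 0.0343). It was the 1 of 7 members called lower, where 5.59% of 19583 genes were, and this count of 1095 genes became 2066 without sham 2 and 351 without DOCA-salt 3. Within proximal cells alone the values were 4298, 3909 and 4387 against 3509, 4098 and 3795 CPM, with overlap (-0.21, interval -0.53 to 0.12, adjusted p = 0.437). A sum over all cells does not by itself separate fewer cells of a type from less RNA of a gene per cell.

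The makeup of the kidneys moved alongside. Proximal cells gave 65.2%, 64.5% and 56.9% of all UMIs in the sham mice and 54.1%, 44.6% and 44.4% in the DOCA-salt mice, and made up 52.8%, 56.2% and 45.3% against 52.6%, 42.0% and 39.6% of cells. Of the Slc34a1 UMIs, 93.6%, 94.1% and 89.4% came from proximal cells in sham and 88.2%, 80.0% and 80.3% in DOCA-salt, while injured tubule cells gave 0.247% to 0.96% and then 6.79% to 10.9%. The proximal part of the other members was lower with DOCA-salt too, from 33.2% to 45.1% of Fgfr1 UMIs in sham to 28.9% to 36.9%, and from 72.2% to 81.6% of Slc20a1 UMIs to 53.7% to 68.3%. With fibroblasts, macrophages and injured tubule cells left out of the sums, the change of Slc34a1 was -0.40 (adjusted p = 0.0804). Its call also ended without sham 1 (adjusted p = 0.119), sham 3 (0.0844), DOCA-salt 1 (0.0722), DOCA-salt 2 (0.0953) or DOCA-salt 3 (0.158), with changes between -0.45 and -0.51, and held without sham 2. It ended too with scaling by library size only (-0.37, adjusted p = 0.0798) and with at most 20% mitochondrial UMIs (-0.54, adjusted p = 0.0634), and 9 of 14 alternatives in all ended it.

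**Figure D4:**
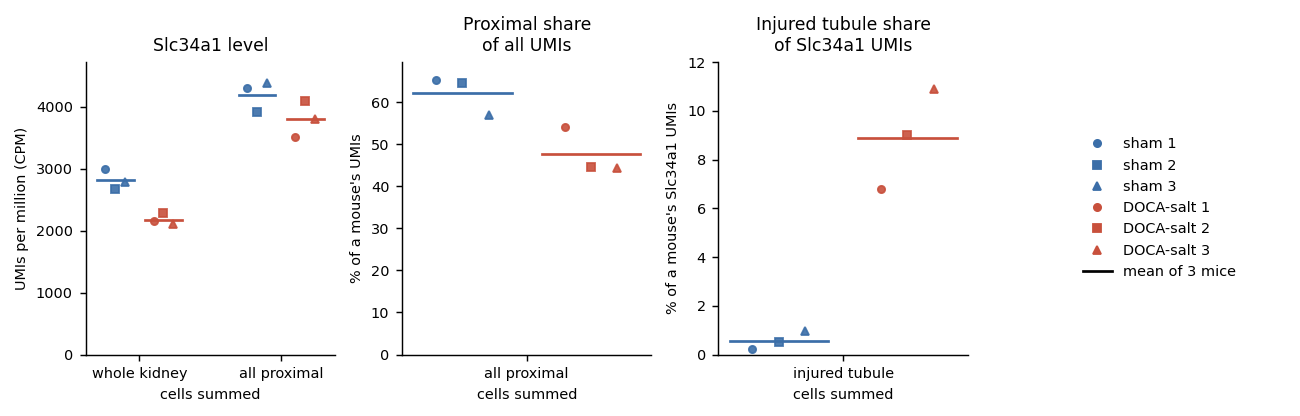
Per mouse (blue sham, red DOCA-salt, line at the mean of 3): the Slc34a1 level in CPM over whole kidneys and over proximal cells, the percent of all UMIs that came from proximal cells, and the percent of Slc34a1 UMIs that came from injured tubule cells. Whole-kidney Slc34a1 separated the groups (2101 to 2284 against 2679 to 2994 CPM), whereas the proximal values overlapped.

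The other members did not pass in whole kidneys. Slc34a3 was at 36.2, 55.8 and 44.4 against 37.4, 33.6 and 36.6 CPM, with sham 1 inside the DOCA-salt range (log2 change -0.45, interval -0.80 to -0.11, adjusted p = 0.0776). It passed with DESeq2, which called 2 members, without sham 1 (-0.60, adjusted p = 0.0323) and with at most 20% mitochondrial UMIs (-0.42, adjusted p = 0.0432). Pth1r was at 244, 143 and 236 against 155, 191 and 138 CPM, sham 2 being among the DOCA-salt mice (-0.49, interval -0.99 to 0.015, adjusted p = 0.172). Without sham 2 it passed (-0.71, adjusted p = 0.00955). Fgfr1 was at 30.3, 30.3 and 32.2 against 33.9, 40.0 and 41.9 CPM, without overlap (0.20, interval -0.030 to 0.43, adjusted p = 0.216), and with fibroblasts, macrophages and injured tubule cells left out the change was -0.012. Slc20a1, Slc20a2 and Xpr1 overlapped, with changes of 0.12, 0.0077 and -0.028.

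Outside the cells named proximal, the single call of a higher phosphate gene by edgeR with the settings used throughout was in injured tubule cells. With scaling by library size only, 1 member was called higher in connecting tubule cells and 1 in the distal convoluted tubule. Without sham 2, 1 was called higher in the distal convoluted tubule and 1 in intercalated cells. Slc34a3 was at 26.0, 45.4 and 35.9 CPM in injured tubule cells of the sham mice and 56.9, 53.9 and 61.7 CPM in those of the DOCA-salt mice, without overlap (log2 change 0.69, SE 0.20, adjusted p = 0.0413, 1 of 7 members, where 3.42% of genes were called higher). The sham values rested on 9, 27 and 28 UMIs, and 6 of 9 alternatives ended the call. Among these were scaling by library size only and leaving out sham 1, sham 3, DOCA-salt 1 or DOCA-salt 3 (adjusted p of 0.0695 to 0.162). In the same cells Slc34a1 was at 1899.9, 1577 and 2161 against 2458, 2891 and 2732 CPM, also without overlap (0.57, SE 0.18, adjusted p = 0.0536, called by DESeq2), and Pth1r at 188, 68.9 and 149 against 204, 273 and 182 CPM (0.80, adjusted p = 0.0771). Calls of higher genes in the same cells were not limited to phosphate: 11 of 18 transporters of other solutes rose and 0 fell (median 0.83), and of the vitamin D list 5 of 10 rose and 1 fell (median 0.67), beside a median over all genes of 0.013. Injured tubule cells numbered 21 to 54 per sham mouse and 243 to 325 per DOCA-salt mouse.

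Fgfr1 was called lower in 3 cell types, those of the distal nephron and collecting duct that follow the distal convoluted tubule. Lower values were not limited to them. In the thick ascending limb Fgfr1 was not called, with 27.6 to 31.9 CPM in the sham mice and 19.5 in the lowest DOCA-salt mouse. Nor was Fgfr1 called in the distal convoluted tubule, with 59.1 to 92.9 CPM in the sham mice and 44.6 in the lowest DOCA-salt mouse. In connecting tubule cells it went from 107, 73.1 and 110 CPM in the sham mice to 55.4, 56.1 and 56.2 CPM in the DOCA-salt mice (log2 change -1.0, SE 0.19, adjusted p = 0.00172, 1 of 2 lower calls among the 6 members tested, where 11.8% of genes were called lower). In principal cells it went from 89.1, 91.1 and 98.4 to 55.7, 44.1 and 57.4 CPM (-0.78, SE 0.15, adjusted p = 0.00694, 1 of 2 lower calls among 6 members, 3.56% of genes), and in intercalated cells from 52.1, 49.0 and 45.3 to 36.1, 30.1 and 27.6 CPM (-0.61, SE 0.14, adjusted p = 0.0267, 1 of 7 members, 2.7% of genes). The groups did not overlap in any of the 3. The calls in connecting tubule and principal cells held without each mouse in turn, whereas that in intercalated cells ended without sham 1, sham 3, DOCA-salt 2 or DOCA-salt 3 (adjusted p of 0.0675 to 0.122).

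Pth1r fell in the distal convoluted tubule, from 259, 125 and 269 to 138, 148 and 102 CPM (log2 change -0.89, SE 0.23, adjusted p = 0.0172, 1 of 2 lower calls among 7 members, 3.25% of genes). Sham 2 lay among the DOCA-salt mice there, and the call ended without sham 1, sham 3, DOCA-salt 1 or DOCA-salt 3 (adjusted p of 0.0652 to 0.157). In the thick ascending limb the groups did not overlap, at 304, 177 and 280 against 146, 158 and 120 CPM, and the change of -0.85 (SE 0.20) had an adjusted p of 0.0577. It was called by DESeq2. In that class 0 of 7 members passed with edgeR, where 1.47% of genes did, with 4 at an unadjusted p under 0.05. Pth1r was not lower in every distal class. In connecting tubule cells, where Pth1r was not called, the sham mice held 86.2 to 154 CPM and the highest DOCA-salt mouse 226 CPM.

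Slc34a1 was lower with DOCA-salt in 6 classes that hold little of it. It went from 208 to 482 CPM in the sham mice to 174 to 279 in connecting tubule cells (log2 change -0.97, adjusted p = 0.0189), from 277 to 504 to 181 to 283 CPM in the distal convoluted tubule (-0.89, 0.0102) and from 181 to 415 to 132 to 187 CPM in principal cells (-0.94, 0.0411). Endothelial cells went from 312 to 459 to 202 to 283 CPM (-0.71, adjusted p = 0.0440, 3.56% of genes called lower), macrophages from 454 to 645 to 219 to 408 CPM (-0.93, 0.0103, 2.67%) and smooth muscle cells or pericytes from 344 to 572 to 167 to 286 CPM (-1.14, 0.0050, 1.02%). The groups did not overlap in the last 3. Each call ended without sham 3 (adjusted p of 0.0661 to 0.173), and that in smooth muscle cells or pericytes under no other omission. Those in macrophages and the distal convoluted tubule also ended without DOCA-salt 1, those in connecting tubule and endothelial cells without sham 1, DOCA-salt 1 or DOCA-salt 2, and that in principal cells without any mouse but sham 2.

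UMIs of other genes were set against those of Slc34a1 in the same cells, as means over the 6 mice. Per 100 Slc34a1 UMIs, the proximal endocytic receptor gene Lrp2 gave a mean of 34.0 UMIs in proximal tubule cells and 24.7 to 33.5 in the 6 classes above. The ratio for Lrp2 varied between mice, with 25.2, 38.7 and 24.3 in proximal cells of the sham mice and 40.9, 33.4 and 41.7 with DOCA-salt. In principal cells it was 17.5, 33.3 and 17.8 against 35.9, 33.9 and 35.2. For Slc34a3 the means were 1.58 in proximal cells and 1.02 to 2.16 in the 6 classes. Pth1r gave 6.17 per 100 in proximal cells but 68.7 in the thick ascending limb, 63.2 in connecting tubule cells and 56.2 in the distal convoluted tubule, and Fgfr1 gave 0.575 in proximal cells against 33.8 in principal, 28.2 in connecting tubule and 19.4 in intercalated cells. The part of free RNA in the lower Slc34a1 of these classes was not tested.

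The wider pathways were followed in lists. Over all proximal cells, where 4.72% of genes were called higher and 2.07% lower, the median change of all genes was -0.019 and that of the 7 members 0.17, 3 of 10 tested genes of PTH signaling rose and 0 fell (median 0.23), as did 2 of 9 of the FGF23-Klotho axis (median 0.036), 1 of 11 of vitamin D enzymes, uptake and receptor (median 0.13), 3 of 9 other genes of phosphate handling (median -0.18) and 2 of 18 transporters of other solutes (median 0.12). Of calcium handling 1 of 7 fell and 0 rose (median 0.10). At an unadjusted p under 0.05 there were 6 genes of PTH signaling, 3 of the FGF23-Klotho axis and 2 of the vitamin D list. There were 8 of other phosphate handling (4 of its 9 changes were positive), 5 transporters of other solutes and 1 of calcium handling. None passed among 8 genes listed under apical scaffold and anchoring proteins (median -0.15, 1 at an unadjusted p under 0.05), or 7 enzymes of inositol pyrophosphates, which bind Xpr1 protein (median 0.0035, 0 at an unadjusted p under 0.05).

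Of the vitamin D genes, Cyp27b1, which encodes the 1-alpha-hydroxylase, was at 3.09, 2.51 and 3.79 CPM over the proximal cells of the sham mice and at 8.63, 6.86 and 6.32 CPM in the DOCA-salt mice. The groups did not overlap, and Cyp27b1 rose by 1.17 on the log2 scale (SE 0.20, interval 0.72 to 1.61, adjusted p = 0.0114), from 111 to 179 UMIs per sham mouse to 191 to 429 per DOCA-salt mouse. Most of them lay in S1, at 7.58, 5.43 and 8.44 against 14.6, 11.9 and 11.2 CPM, again without overlap, where the change of 0.76 (interval 0.33 to 1.18) missed the threshold at adjusted p = 0.0610. It passed under 7 of 15 alternatives, among them DESeq2, scaling by library size only and at most 20% mitochondrial UMIs (adjusted p of 0.00392 to 0.217 over the 15). In S2 it rose by 2.48 (SE 0.46, adjusted p = 0.0137) from 3 to 6 UMIs per sham mouse to 14 to 33, a call that ended without sham 1, DOCA-salt 1 or DOCA-salt 3 (adjusted p of 0.0576 to 0.0641), in sums where S1 markers were higher as well.

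Cyp24a1, the enzyme that degrades active vitamin D, overlapped between the groups over all proximal cells, at 29.2, 54.5 and 72.5 against 36.4, 73.8 and 41.5 CPM (log2 change -0.11, interval -0.88 to 0.66, adjusted p = 0.884). The vitamin D receptor gene Vdr rose in S1, from 65.5, 74.0 and 63.4 to 103, 107 and 102 CPM without overlap (0.55, SE 0.12, interval 0.29 to 0.80, adjusted p = 0.0297), and overlapped in S2 (0.090, interval -0.17 to 0.35). The injured tubule markers and those of S2 and S3 were higher in the same S1 sums, as given above, and their part was not tested. The call for Vdr in S1 held without sham 2 but ended without any other mouse (adjusted p of 0.101 to 0.145). Lrp2, which encodes megalin, the receptor that takes up filtered vitamin D with its binding protein, overlapped over all proximal cells (0.20, interval -0.18 to 0.57, adjusted p = 0.527). It passed in S2 without sham 2 (0.47, adjusted p = 0.0304).

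**Figure D5:**
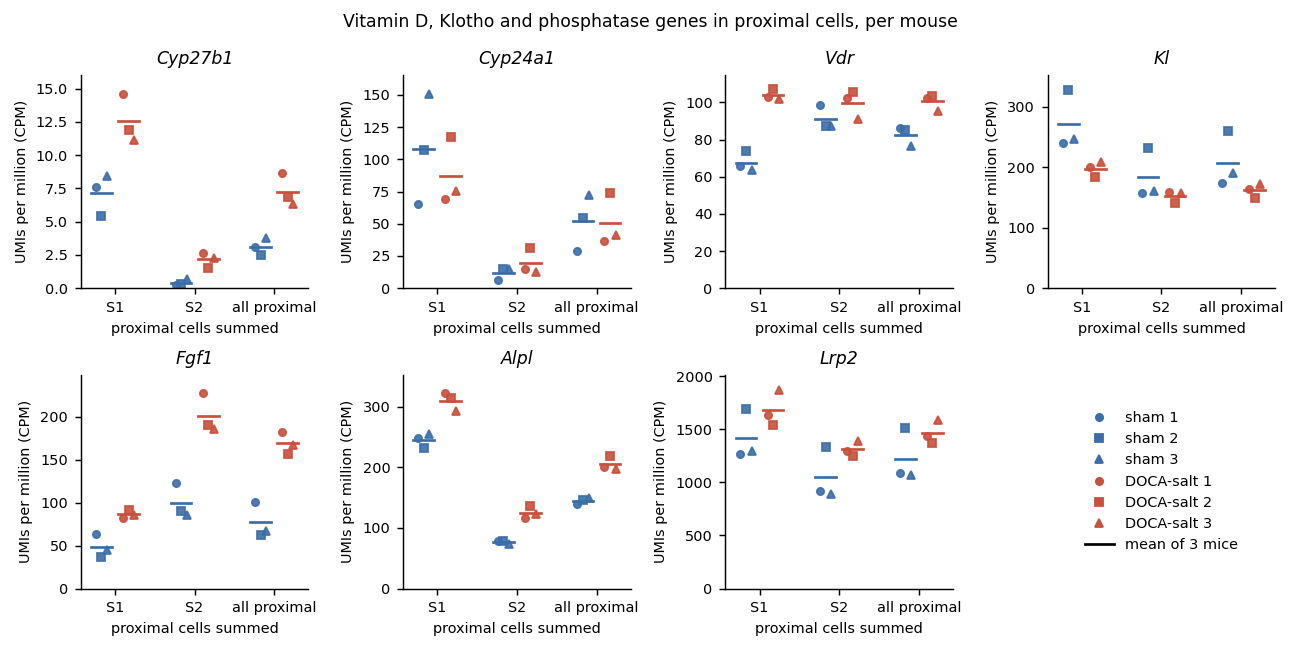
Level in CPM (linear axes from 0) of genes of the vitamin D, Klotho and other phosphate lists in S1, S2 and all proximal cells, with 1 point per mouse, blue for sham and red for DOCA-salt, and a line at the mean of 3 mice. Cyp27b1, Fgf1, Alpl and, by a narrow gap, Kl separated the groups over all proximal cells, Vdr separated them in S1, and Cyp24a1 and Lrp2 overlapped.

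On the FGF23 side, Kl, which encodes Klotho, was at 173, 259 and 190 CPM over proximal cells in sham and 164, 149 and 172 CPM in DOCA-salt, without overlap, by a narrow gap, and short of the adjusted threshold (log2 change -0.42, interval -0.79 to -0.057, adjusted p = 0.156). Sham 2 was far above the other mice, and without it the change was -0.22. In S1 the change of Kl was -0.54 (adjusted p = 0.0922), and 2 of 15 alternatives called it, DESeq2 (adjusted p = 0.0229) and testing without a count filter (0.0108). Fgf1, a growth factor that binds the same receptors, rose from 101, 62.9 and 67.2 to 183, 157 and 168 CPM (1.08, SE 0.17, adjusted p = 0.00815), and this call held without each mouse in turn. Sgk1, a kinase gene that mineralocorticoids induce, rose from 87.2, 121 and 112 to 348, 159 and 212 CPM (1.10, SE 0.27, adjusted p = 0.0429). DOCA-salt 1 was far above the other mice for Sgk1, and without it the change was 0.71 (adjusted p = 0.0936). The call for Sgk1 also ended without sham 1, sham 3 or DOCA-salt 3 (adjusted p of 0.0973 to 0.139).

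Downstream of the PTH receptor, the adenylyl cyclase gene Adcy9 rose from 39.6, 38.1 and 35.5 to 48.4, 52.6 and 53.6 CPM over proximal cells (log2 change 0.39, SE 0.091, adjusted p = 0.0372). The G protein gene Gnaq rose from 78.7, 80.1 and 79.1 to 101, 111 and 120 CPM (0.42, SE 0.099, adjusted p = 0.0381). Neither overlapped between groups, and both calls held without sham 2 and ended without any other mouse (adjusted p of 0.0682 to 0.183). The third gene of that list, Adcy6, named after its values were seen, rose by 0.60 (adjusted p = 0.0258) at a mean of 10.8 CPM.

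Among other phosphate genes, Alpl, which encodes tissue-nonspecific alkaline phosphatase, rose in S2 from 78.1, 78.5 and 73.5 to 117, 136 and 123 CPM (log2 change 0.67, SE 0.11, adjusted p = 0.00685). That call held without each mouse but ended at clustering resolution 2 (0.38, adjusted p = 0.147). Over all proximal cells its change of 0.44 (adjusted p = 0.0413) held without sham 2 and ended without any other mouse (adjusted p of 0.0896 to 0.143). The remaining 2 calls of the list, named after their values were seen, were Slc34a2, a cotransporter of the same family known from lung and gut, and Stc2, which encodes a stanniocalcin. Slc34a2 rose from 8 to 20 UMIs per sham mouse to 51 to 69 per DOCA-salt mouse (2.14, adjusted p = 0.00333) and Stc2 from 17 to 24 to 92 to 139 UMIs (2.59, adjusted p = 0.00154). Neither exceeded 3.31 CPM over the proximal cells of any mouse.

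S100g, which encodes the calcium-binding protein calbindin-D9k, fell from 217, 92.8 and 208 to 49.9, 75.2 and 72.5 CPM over proximal cells (log2 change -1.45, SE 0.29, adjusted p = 0.0204). S100g is also abundant in the connecting tubule. The 7 connecting tubule markers, which include S100g itself, summed to 138 to 381 CPM in the same sham sums and 108 to 144 CPM in the DOCA-salt sums. As S100g is part of these sums, they are not separate from its fall. The part of connecting tubule cells was not tested. The S100g call ended without sham 1, sham 3, DOCA-salt 1 or DOCA-salt 3 (adjusted p of 0.054 to 0.083).

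Transporters of other solutes gave a comparison for the cotransporters of phosphate. The amino acid transporter gene Slc7a8 rose in S2 from 36.2, 47.2 and 38.0 to 71.5, 73.0 and 78.7 CPM (log2 change 0.84, SE 0.12, adjusted p = 0.00468), a call that held without each mouse but ended at clustering resolution 2 (0.54, adjusted p = 0.0681). The monocarboxylate transporter gene Slc16a1 rose in S2 from 31.8, 41.0 and 24.5 to 62.8, 57.5 and 64.5 CPM (0.89, SE 0.16, adjusted p = 0.0117), and ended without sham 1 or DOCA-salt 3 (adjusted p of 0.0570 and 0.0581). The neutral amino acid transporter gene Slc6a19 fell in S1 from 366, 372 and 530 to 270, 247 and 223 CPM (-0.85, SE 0.17, adjusted p = 0.0270), and ended without sham 3 or any DOCA-salt mouse (adjusted p of 0.0586 to 0.144). Slc7a8, Slc6a19 and Alpl were among the S1 markers by which segments were named, but not among the genes used to cluster the cells. Slc7a8, Alpl and Adra1a, named after its values were seen, were the 3 S1 markers called higher in S2.

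Across 18 cell classes, the genes whose mean level (log2 of CPM plus 1, 6 mice) followed that of a member most closely, out of 11480 genes, were Acsm2, G6pc and Ugt2b38 for Slc34a1 (Pearson r of 0.989, 0.988 and 0.986). Slc5a2, Slc5a12 and D630023F18Rik followed Slc34a3 (0.973, 0.972 and 0.962). For Pth1r they were Sardh, Klf15 and Mfsd4b3-ps (0.904, 0.890 and 0.881), for Slc20a1 Nt5e, St8sia1 and Ttc39c (0.861, 0.847 and 0.832) and for Slc20a2 Tlcd5, Pex5 and Zfp568 (0.907, 0.904 and 0.895). Fgfr1 was followed by Tmtc3, Rnf217 and Rnf214 (0.876, 0.840 and 0.824), and Xpr1 by Trip12, Gtf2h1 and Epc1 (0.849, 0.845 and 0.843). The classes share the same 6 libraries and their free RNA, and Acsm2, Ugt2b38, Slc5a2 and Slc5a12 are markers by which proximal cells were named, so these values are a description of likeness alone.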

How the data were processed

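Kidneys of 6 mice were dissociated with collagenase and single-cell 3′ libraries were made. The deposited values are raw UMI counts per gene and barcode, made by the authors with Cell Ranger (8.0.1 per the file headers, 9.0.0 per the submitters' processing notes, which also name Seurat 4.0.0 and R 4.0.3) on mouse build GRCm39. The annotation release was not given in the sources used here, and coordinates are from GENCODE.

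Barcodes with at most 50% mitochondrial and 5% hemoglobin UMIs were kept. The deposited barcodes all held at least 500 UMIs and 170 genes. Doublets were removed by a score against simulated pairs, 0.8% per 1000 barcodes. Cells were clustered on 2000 variable genes (members and pathway genes excluded), 30 components, 15 neighbors and Leiden resolution 1, and proximal cells again on genes variable within every mouse. Clusters were named from marker lists, needing 3 detected markers. Counts were summed per mouse and class with at least 10 cells per mouse.

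Sums were tested with edgeR's quasi-likelihood test (4.0.16, limma 3.58.1, R 4.3.3, TMM), adjusted over all genes tested by Benjamini-Hochberg, threshold 0.05. Intervals are 95%. DESeq2 (1.42.0) was an alternative. Cell numbers per class were compared with the same test. The test was checked on simulated counts with known changes. It found most of them in S1 but missed most 2-fold changes in S3, so a missed threshold in S3 says little. It also missed most 2-fold changes for the difference between S1 and S2. The counts for that difference had a spread set in advance, not taken from the data. They therefore do not measure how well the test finds such differences here. False calls exceeded the nominal share in S1, S2, all proximal cells and whole kidneys. An exact permutation test of 3 against 3 mice cannot go below p = 0.1 and was not used. P-values rest on the spread between these mice, with the error of a gene drawn toward that of genes at a like level. In the differences with S3 the error came wholly from that shared trend. The spread of the gene itself over mice did not enter those p-values. Clustering used python-igraph 0.11.9 and scipy 1.17.1 under Python 3.11.15, and figures matplotlib 3.10.9.

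Members and lists were chosen with earlier results of these data known. Of the pathway lists, Kl, Cyp27b1, Cyp24a1, Vdr and Lrp2 were always named, and others where called at a mean of at least 20 CPM.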

Additional observations from a re-analysis of the deposited data

Results flagged for a closer look

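By the test of the difference itself, 0 of 7 members passed between segments. For S2 against S1 the test missed most 2-fold changes put into simulated counts, whose spread was set in advance and not taken from the data. In the data, the S2 minus S1 intervals of the 7 members lay between -0.55 (Slc34a3) and 0.47 (Slc20a1). The tests with S3 were not simulated. Of the other genes of the pathway lists, 14 of 77 tested passed for S2 against S1 (4.91% of all genes), 4 of 74 for S3 against S1 (1.06%) and 2 of 73 for S3 against S2 (0.756%). From S1 to S2 the change with DOCA-salt was larger by 1.03 on the log2 scale for Cyp24a1 (SE 0.15, adjusted p = 6e-05), by 1.72 for Cyp27b1 (SE 0.42, adjusted p = 0.0142), by 0.39 for Alpl (SE 0.099, adjusted p = 0.0217) and by 0.84 for Slc7a8 (SE 0.11, adjusted p = 3.92e-05). For Vdr the difference was -0.47 (SE 0.10, adjusted p = 0.00682). Alpl and Slc7a8 are among the S1 markers by which segments were named, though not among the genes used to cluster the cells. At clustering resolution 2 the differences for Cyp24a1 (0.52, adjusted p = 0.0666), Alpl (0.14, adjusted p = 0.668) and Vdr (-0.38, adjusted p = 0.0850) missed the threshold. Cyp24a1 itself passed in neither segment (-0.38 in S1, adjusted p = 0.552, and 0.70 in S2, adjusted p = 0.309).

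Fgf1 rose in S2 and in S1, where the call ended without sham 3 or any DOCA-salt mouse (adjusted p of 0.0902 to 0.116). It was at 690, 182 and 544 CPM in S3 of the sham mice and 202, 424 and 380 CPM in the DOCA-salt mice. Its change in S3 differed from that in S1 by -1.26 (SE 0.20, adjusted p = 2.73e-07) and from that in S2 by -1.49 (SE 0.21, adjusted p = 4.7e-09). The groups overlapped in S3, where the values varied widely within each group. In the differences with S3 the SEs come from an error shared over genes, so these p-values do not measure the spread of Fgf1 over mice. For Lrp2 the S3 change exceeded that in S1 by 0.66 (SE 0.19, adjusted p = 0.0382), in a fit whose median over all genes was 0.14. With DESeq2's size factors in edgeR Lrp2 missed the threshold (0.51, adjusted p = 0.29), and Fgf1 stayed past it (-1.40 against S1, adjusted p = 5.07e-09). With segments per cell the Fgf1 difference from S1 turned to 0.69 (adjusted p = 2.45e-05) and at resolution 2 to 0.50 (adjusted p = 0.00367). From S2 it turned to 0.41 (adjusted p = 0.000292) and 0.36 (adjusted p = 0.0733). The S3 values rest on 17 to 83 cells per mouse and on how segments were set.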

How the results depend on the processing

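For the members in proximal classes and whole kidneys, 464 of 497 alternative values kept direction and side of the threshold, 9 lost a call, 5 gained one and 19 changed sign. In other classes 35 of 99 lost a call, and of the pathway genes 89 of 550. The number of members called in whole kidneys (1) became 2 with DESeq2, 0 with scaling by library size only, 0 with a replicate block, 0 without fibroblasts, macrophages and injured tubule cells, and 0 to 2 when 1 mouse was left out. In S3, clustering at resolution 2 called 1 member, Fgfr1 (0.51, adjusted p = 0.0484, with 310 to 792 cells per mouse). Calls of a segment difference numbered 2 without doublet removal (S2 and S3 against S1), 1 with segments per cell and 1 at resolution 2, all for Slc20a1. Several classes gave no call. These were T or NK cells (0 of 4 members, 44 of 6805 genes called higher and 38 lower) and cycling cells (0 of 7, 926 and 293 of 10071). Dendritic cells (0 of 5, 160 and 64 of 6912) gave none either. Nor did descending or thin limb cells (0 of 7, 45 and 18 of 11604) or parietal epithelial cells (0 of 6, 70 and 78 of 9708). The 11 calls in other classes became 7 with the replicate block and 3 to 20 with 1 mouse left out (20 without sham 2, 3 without sham 3). The counts of all genes called lower moved there too. In the distal convoluted tubule 326 became 523 without sham 2 and 137 without sham 3, and in endothelial cells 452 became 800 and 157. In intercalated cells 324 became 513 without sham 2 and 105 without DOCA-salt 3, and in principal cells 373 became 557 and 169.

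The log2 ratio of group means for the share of S3 cells, 1.41, became -0.49 with segments per cell and -0.62 at resolution 2. Signs of the genes named changed within a class only for values that missed the threshold. Slc20a1 in S1 became -0.014 with DESeq2, -0.014 with its size factors, -0.025 without a count filter, -0.0032 with the replicate block, -0.24 without doublet removal and -0.10 to 0.11 when 1 mouse was left out, and in S2 -0.25 at resolution 2. In whole kidneys, Slc20a2 became -0.013 with at most 20% mitochondrial UMIs and -0.058 without sham 3 (up to 0.065 without another mouse), Fgfr1 -0.012 without fibroblasts, macrophages and injured tubule cells, and Xpr1 0.0073 under that omission, 0.086 with library size only and -0.096 to 0.043 when 1 mouse was left out. Pth1r in S1 became 0.0046 with the 20% limit and 0.0074 without sham 3 (down to -0.31 without DOCA-salt 2), and Cyp24a1 over proximal cells 0.033 with that limit and -0.49 to 0.21 when 1 mouse was left out. The cause was not tested. Deviations from the group mean were correlated between sham and DOCA-salt mice in the 3 segments, all proximal cells and whole kidneys. Same-numbered mice gave r of -0.40 to 0.016, and other pairs -0.24 to 0.33. Sham 1 and sham 3 each had positive values with DOCA-salt 2, and sham 2 with DOCA-salt 1 and DOCA-salt 3. Whether mice of the 2 groups shared a batch was not tested. With the replicate block 20 of the 37 calls of named genes within a class were not made (adjusted p of 0.0544 to 0.179). These were, of the members, Slc34a1 in whole kidneys (0.157) and principal cells (0.0604), Slc34a3 in injured tubule (0.108), Pth1r in the distal convoluted tubule (0.102) and Fgfr1 in intercalated cells (0.0979). Of the others they were Cyp27b1 (0.0618), Adcy9, Gnaq, Sgk1, Alpl, S100g and Slc16a1 over proximal cells, Vdr, Fgf1, Sgk1, Slc16a1 and Slc6a19 in S1, and Alpl, S100g and Slc16a1 in S2. S3 and its differences with the 20% limit were not run for want of cells (5 to 14 per sham mouse). Low counts at 17 to 83 cells per mouse limit what could be detected in S3.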
